A study of Mus musculus with 32 samples.

Results

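The tumours described here were the 8 primary mouse melanomas with the highest expression of Wnt feedback genes and the 8 with the lowest, taken from 32 melanomas. Each tumour was given a score, the mean of log2(TPM + 1) of Axin2, Nkd1 and Sp5, where TPM is an abundance scaled for gene length and library size. The 8 highest scores formed the high set, the 8 lowest the low set, and the 16 tumours between them the middle set. The tumours were chosen by these measured levels, so the levels of Axin2, Nkd1 and Sp5 in the sets are given as a description with no test.

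All 32 tumours came from mice that express the Nras oncogene NrasQ61K from the tyrosinase promoter (Tyr::NrasQ61K), which is active in the melanocyte lineage, and are labelled Cdkn2a-/+ and Cdh1F/F. Cdkn2a encodes a tumour suppressor, and Cdh1F/F denotes floxed alleles of Cdh1, which encodes the cell adhesion molecule E-cadherin. Ecad tumours carried no Cre (labelled °/°), and the methods of the study give Tyr::CreA/° as the Cre that removes Cdh1 in the melanocytes of ΔEcad tumours, where the labels instead write Tyr::NRAS/°. The 4 groups of the study, Ecad and ΔEcad tumours of females and of males, held 8 tumours each. No age was stated, nor whether tumours shared a mouse, so p-values measure the spread between these samples. Polyadenylated RNA of each tumour was sequenced, and total counts were 24036333 to 63923086 per tumour.

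The high set held 2 Ecad female, 2 Ecad male, 3 ΔEcad female and 1 ΔEcad male tumours, and the low set 2, 2, 1 and 3 in the same order. ΔEcad tumours thus made up 4 of 8 in both sets (two-sided Fisher's exact test, p = 1, adjusted p = 1 over both labels). Females made up 5 of 8 high and 3 of 8 low tumours (two-sided Fisher's exact test, p = 0.619, adjusted p = 1). The total count was 36387390 ± 6309856 (SD, n = 8) in the high and 39155375 ± 11198960 (SD, n = 8) in the low set, a difference within the spread (two-sided exact permutation test, p = 0.605).

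Dct, the melanocyte enzyme dopachrome tautomerase, lay at 1917 to 50656 TPM in the 16 tumours, as the label of melanoma requires. The tumour ΔEcad female 3 of the high set stood apart. It held no count of the haemoglobin genes Hba-a1, Hba-a2, Hbb-bs and Hbb-bt, where the other 7 high tumours held 9328 to 61813, and its summed TPM of 8 endothelial markers was 0.78 against 80.46 to 211.01. Its 10 fibroblast markers summed to 10389 TPM against 487 to 4615 in the other 7. In the middle set, ΔEcad male 7 held Dct at 4.98 TPM, where every other tumour exceeded 1466. ΔEcad male 2 held no count of the Y-linked genes Ddx3y, Eif2s3y, Kdm5d and Uty, which summed to at least 20.76 TPM in the other 15 males, and ΔEcad female 1 held them at 1.2 TPM. Xist lay at 6.41 TPM in ΔEcad male 2, against 0 to 0.2 in the other 15 males and 8.55 to 253.16 in the 16 females. The reason was not tested. Ecad male 8 of the high set held the lowest sum of the Y-linked genes among the other males, 20.76 TPM. Its Kdm5d was at 0.25 TPM where the next of these males held 0.98. For some of the genes described, values without these libraries are given where they change a direction or a call. Cdh1 itself had a median of 51.9 TPM in the 4 Ecad and 2.53 in the 4 ΔEcad tumours of the high set, and of 109.0 and 7.36 in the 4 and 4 of the low set. In the high set the genotypes overlapped, with ΔEcad female 8 at 78.35 TPM and Ecad female 4 at 5.96. The summed TPM of 12 keratinocyte markers, which report skin, was highest of the high set in ΔEcad female 8 (6780.61) and lowest in Ecad female 4 (7.18). The part of skin RNA in these Cdh1 levels was not tested.

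In canonical Wnt signalling, secreted Wnt ligands bind Frizzled receptors with the co-receptors Lrp5 and Lrp6, and beta-catenin, encoded by Ctnnb1, escapes a complex that marks it for destruction. Beta-catenin then enters the nucleus and activates genes together with the DNA-binding factors Tcf7, Lef1, Tcf7l1 and Tcf7l2. Several of the activated genes restrain the pathway in turn. Axin2 is a scaffold of the destruction complex, Nkd1 binds the Wnt effector Dishevelled, and Sp5 is a zinc-finger transcription factor that damps the response of other Wnt targets. In the melanocyte lineage, the pathway is known for its role in specifying melanocytes from the neural crest and in activating Mitf.

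The promoters of the genes that chose the tumours are shown because Tcf and Lef factors recognise short sites related to CTTTGA. Each window covers 250 bases before and 50 bases from the start of the gene in RefSeq (build GRCm38.p6), 5′ to 3′. The motif CTTTGA, or its reverse complement TCAAAG, is in capitals and does not overlap another match.
Sp5 promoter, chr2:70474673-70474972, + strand: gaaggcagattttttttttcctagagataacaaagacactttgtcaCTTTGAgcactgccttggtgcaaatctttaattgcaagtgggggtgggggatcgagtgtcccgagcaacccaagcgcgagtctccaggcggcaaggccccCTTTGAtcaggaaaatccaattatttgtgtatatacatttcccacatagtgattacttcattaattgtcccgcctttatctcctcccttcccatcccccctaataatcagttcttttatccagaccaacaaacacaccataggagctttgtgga
Axin2 promoter, chr11:108920099-108920398, + strand: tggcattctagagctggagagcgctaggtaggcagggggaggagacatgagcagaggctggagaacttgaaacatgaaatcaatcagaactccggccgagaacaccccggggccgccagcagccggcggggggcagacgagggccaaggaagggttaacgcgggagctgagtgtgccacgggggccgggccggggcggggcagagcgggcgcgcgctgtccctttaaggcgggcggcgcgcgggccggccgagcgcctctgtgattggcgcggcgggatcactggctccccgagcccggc
Nkd1 promoter, chr8:88527383-88527682, + strand: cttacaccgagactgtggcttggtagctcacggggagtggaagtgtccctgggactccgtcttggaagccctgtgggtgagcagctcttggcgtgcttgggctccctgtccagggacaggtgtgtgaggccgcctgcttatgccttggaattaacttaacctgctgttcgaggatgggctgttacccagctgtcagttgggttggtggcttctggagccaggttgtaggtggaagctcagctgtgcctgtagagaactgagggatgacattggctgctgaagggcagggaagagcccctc
The Sp5 window held CTTTGA at 2 places, 204 and 104 bases before the start. The Axin2 and Nkd1 windows held no match, and 5257 of 32851 RefSeq promoter windows of this length (16%) held at least 1. The Nkd1 window surrounds a RefSeq start that lies inside the gene as annotated by GENCODE.

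Of the 3 genes of the score, Nkd1 alone separated the sets with no overlap. Its TPM in the high set, from the highest score down, was 231.49 in ΔEcad female 4, 57.67 in Ecad female 5, 128.51 in Ecad male 8, 217.75 in Ecad female 4, 58.01 in ΔEcad male 6, 11.30 in ΔEcad female 8, 23.89 in ΔEcad female 3 and 12.44 in Ecad male 3. In the low set it was 2.01 in Ecad male 4, 4.36 in ΔEcad female 5, 1.71 in ΔEcad male 5, 2.79 in ΔEcad male 4, 1.32 in Ecad female 8, 1.87 in Ecad male 7, 0.90 in ΔEcad male 1 and 0.34 in Ecad female 1. Every high tumour exceeded every low tumour.

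Axin2 in the same order of tumours was 68.15, 42.80, 38.16, 86.81, 29.19, 17.89, 45.97 and 11.69 TPM in the high set, and 5.82, 8.77, 14.68, 11.35, 17.62, 10.74, 2.65 and 1.76 TPM in the low set. The sets overlapped for Axin2, since Ecad male 3 of the high set lay below 2 low tumours, and 7 of 8 high tumours exceeded every low tumour.

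Sp5 was 21.10, 57.68, 7.02, 0.65, 2.99, 5.77, 0.00 and 4.07 TPM in the high set, and 2.35, 0, 0.20, 0.05, 0.07, 0, 0.03 and 0 TPM in the low set. Sp5 thus ran from 0 to 57.68 TPM within the high set and overlapped the low set, and the high tumour ΔEcad female 3 owed its place to Axin2 and Nkd1. Axin2 (chr11:108920349-108950783, GRCm38) overlaps Gm11670 and Nkd1 (chr8:88521354-88594884) overlaps Gm45496, so their counts are uncertain where the counting did not use strand. Sp5 lies at chr2:70474923-70477729.

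The score averaged 4.55 ± 1.11 (SD, n = 8) in the high, 2.67 ± 0.37 (n = 16) in the middle and 1.60 ± 0.52 (n = 8) in the low set. Inside the upper edge was Ecad male 3 with a score of 3.25 and outside it Ecad male 2 with 3.14. Inside the lower edge was Ecad male 4 with 2.03 and outside it ΔEcad male 8 with 2.06, so the edges cut a continuous range. Over the 32 tumours, which share the normalisation of TPM, log2(TPM + 1) of Axin2 and Nkd1 correlated with Pearson's r = 0.71 and Spearman's rho = 0.62. For Nkd1 and Sp5 r was 0.57 and rho 0.51, and for Axin2 and Sp5 0.32 and 0.34. These are descriptions of the genes that made the score.

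**Figure D1:**
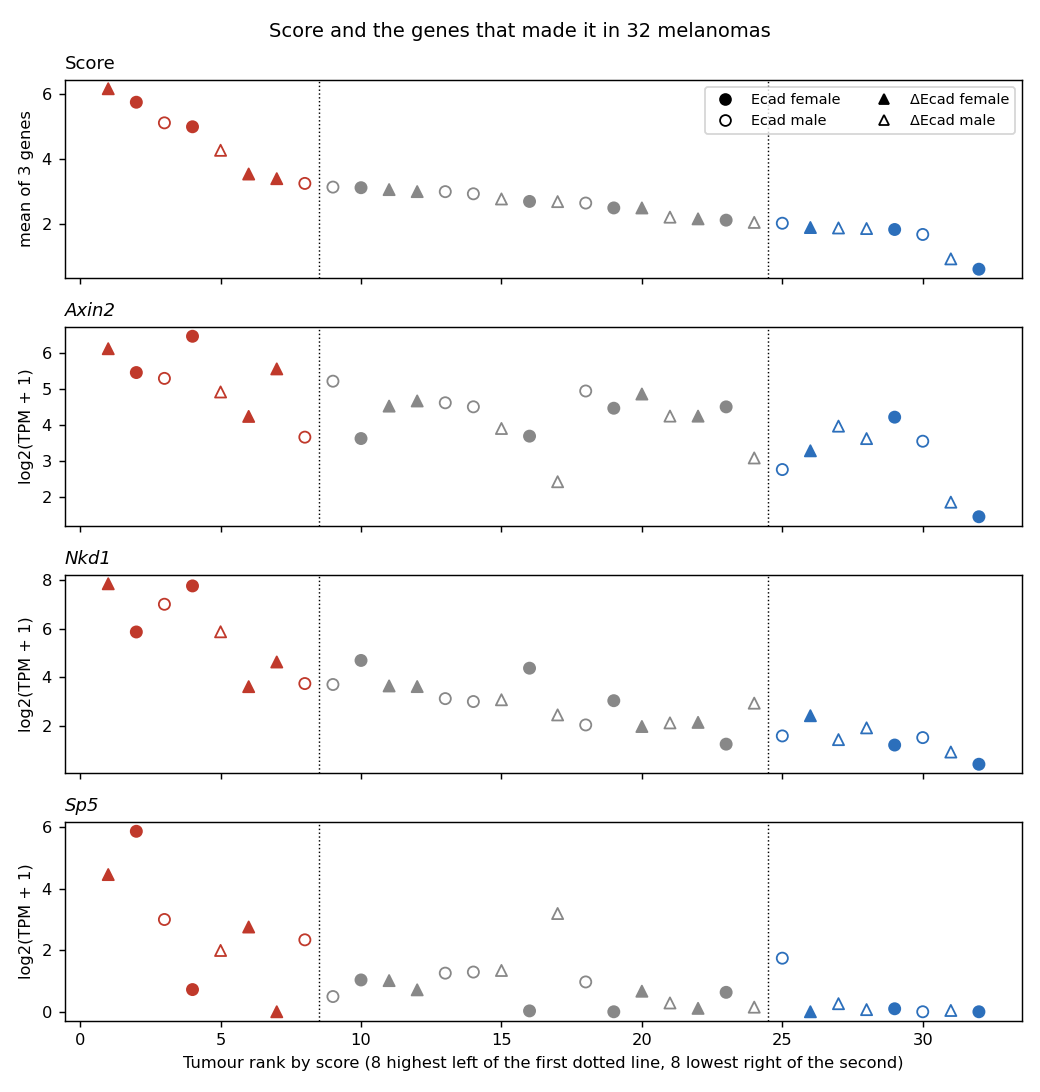
Score and log2(TPM + 1) of Axin2, Nkd1 and Sp5 (y axes) of 32 tumours ordered by the score (x axis, rank). Circles are Ecad and triangles ΔEcad tumours, filled for females and open for males, in red for the 8 high, grey for the 16 middle and blue for the 8 low tumours, and dotted lines mark the edges of the sets. The score falls without a gap at either edge, and Sp5 is at 0 TPM in the high tumour ΔEcad female 3.

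All genes were compared between the 8 high and the 8 low tumours on the raw counts. Called genes had an adjusted p under 0.05 over all genes tested and an absolute log2 fold change over 1. Of 15599 genes tested beside Axin2, Nkd1 and Sp5, 2 were called (0.0128%), 1 in each direction (0.00641% each). Tmem119 rose and Gm13174 fell in the high set. The median log2 fold change of all genes was -0.07.

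Tmem119 (ENSMUSG00000054675, chr5:113793729-113800516) encodes a membrane protein known as a marker of microglia and for a role in osteoblast differentiation. Its TPM in the high set, in the order of the score, was 106.27, 39.76, 61.02, 92.83, 100.68, 18.11, 94.98 and 31.46. In the low set it was 5.61, 9.87, 7.63, 12.42, 4.51, 5.92, 2.16 and 8.83. Every high tumour exceeded every low tumour, which was so for 19 of 15599 genes (0.122%). The mean was 68.1 ± 34.9 TPM (SD, n = 8) against 7.12 ± 3.25 (n = 8), with a log2 fold change of 3.27 (SE 0.40, adjusted p = 0.00413 by edgeR).

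The difference in Tmem119 was called after leaving out each of the 16 tumours in turn. It was called too with a fibroblast score as a covariate (log2 fold change 3.30, edgeR adjusted p = 0.00615). It was not called with a score built without Nkd1 (2.97, edgeR adjusted p = 0.0777) or without Sp5 (2.55, adjusted p = 0.0978), or between the 16 highest and the 16 lowest tumours, where its log2 fold change was 1.28 (adjusted p = 0.314), or 1.81 without ΔEcad male 7 (adjusted p = 0.0723).

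Gm13174 (chr4:153218176-153218595) is annotated as a long intergenic non-coding RNA, and is named because it is 1 of the 2 called genes. Its TPM in the high set was 0, 0.39, 0.74, 0, 0, 2.25, 0 and 0.31, which is 0 to 6 counts. In the low set it was 17.08, 9.37, 84.43, 45.88, 8.54, 4.13, 20.51 and 19.55, from 11 to 224 counts. Every high tumour lay below every low tumour, as for 3 of 15599 genes (0.0192%). Gm13174 passed the filter on low counts (minimum count 10) only through the low set. That fixed the lack of overlap in advance, so the separation adds nothing to the fold change. The fitted log2 fold change of -5.84 (SE 0.87, adjusted p = 0.0178 by edgeR) rests on a high set in which 7 of 8 tumours held 3 counts or fewer. The call was lost without Ecad female 5, Ecad male 8, Ecad female 4 or ΔEcad male 6, with edgeR adjusted p of 0.0678, 0.0521, 0.0610 and 0.0652, and log2 fold changes between -5.69 and -6.02. It was lost too between the 6 highest and 6 lowest tumours (-5.72, edgeR adjusted p = 0.0867) and in a fit of all 32 tumours in 3 levels (-5.84, adjusted p = 0.0642).

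The number of called genes turned on single tumours. Without ΔEcad female 8 it was 113, with 78 higher and 35 lower in the high set, and without Ecad male 7 it was 66, with 36 higher and 30 lower. Without ΔEcad female 3 it was 18, without Ecad male 3 it was 13, without Ecad male 4 it was 12 and without Ecad female 1 it was 6. It was 1 without Ecad female 5, Ecad male 8, Ecad female 4 or ΔEcad male 6. DESeq2 called 361 genes higher and 367 lower on the same counts, both called genes among them. Because so few genes were called, each list of genes was also described by the members at an unadjusted p under 0.05, a mark reached by 1019 genes (6.53%) higher and 1220 genes (7.82%) lower in the high set.

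Most other Wnt feedback and target genes had positive fold changes. Of 24 such genes 19 passed the filter on low counts, and none was called by edgeR, against the 0.0128% over all genes. At an unadjusted p under 0.05, 11 were higher and 1 was lower, and 14 of 19 fold changes were positive. Their median log2 fold change was 1.04, beside -0.07 for all genes. DESeq2 called 7 of the 19 higher, namely Lef1, Tbx3, Wif1, Tcf7, Notum, Fst and Tnfrsf19, where it called 2.31% of all genes higher and 2.35% lower.

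Tcf7 and Lef1 encode DNA-binding partners of beta-catenin. Tcf7 ran from 33.17 to 271.02 TPM with a median of 155.6 in the high set, and from 7.51 to 39.77 with a median of 19.4 in the low set. Its log2 fold change was 2.66 (SE 0.50, adjusted p = 0.0607 by edgeR), and 7 of 8 high tumours exceeded every low tumour. Lef1 ran from 1.96 to 19.18 TPM with a median of 11.2 in the high set, and from 0.02 to 2.93 with a median of 0.475 in the low set (log2 fold change 3.83, SE 0.76, adjusted p = 0.0619 by edgeR). Here 7 low tumours lay below every high tumour, and Ecad male 7 of the low set held the 2.93 TPM.

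Tbx3, a T-box transcriptional repressor, ran from 1.24 to 7.23 TPM with a median of 2.89 in the high set and from 0.18 to 0.99 with a median of 0.475 in the low set. The sets did not overlap, and the log2 fold change was 2.56 (SE 0.46, adjusted p = 0.0537 by edgeR). Between the 16 highest and 16 lowest tumours it was -0.01, and without ΔEcad male 7, which held Tbx3 at 44.61 TPM, it was 2.32 (edgeR adjusted p = 0.0139). Notum, a secreted esterase that inactivates Wnt proteins, ran from 0.32 to 18.12 TPM in the high set and from 0 to 0.65 in the low set (log2 fold change 4.77, SE 0.96, adjusted p = 0.0619 by edgeR). Tnfrsf19, a receptor of the tumour necrosis factor family that was chosen after its values were seen, ran from 6.52 to 236.77 TPM against 1.32 to 31.25 (log2 fold change 3.00, SE 0.69, adjusted p = 0.0705 by edgeR).

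These genes lay close to the threshold, on one side or the other of it by the tumours included. Without ΔEcad female 3, edgeR called Tbx3 and Tcf7 (adjusted p = 0.0477 for both). Without ΔEcad female 8 it called Lef1, Tbx3, Tcf7, Notum and Tnfrsf19, and without Ecad male 7 it called Lef1, Tbx3 and Tcf7. With the fibroblast score as a covariate it called Tcf7, Notum and Tnfrsf19 (edgeR adjusted p = 0.0129, 0.0322 and 0.0268), and not Tbx3 or Lef1 (adjusted p = 0.0977 and 0.0598). With keratinocyte and melanocytic scores as covariates it called Tcf7, Tbx3 and Lef1 among 4 of the list (edgeR adjusted p = 0.00432, 0.0260 and 0.0415). Tcf7, Lef1, Tbx3 and Notum each overlap annotated non-coding or neighbouring genes, so their counts are uncertain where strand was not used. The same holds for Ctnnb1, Wnt11, Rspo3, Ptk7, Fzd6, Cdh11, Ctnnd2, Dct, Slc24a5, Tnc, Tchh, Gata3, Cd3e, Cd22, Flt3 and Itgae below.

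Among the remaining members at an unadjusted p under 0.05, all chosen after their values were seen, Wif1, a secreted Wnt inhibitor, had a log2 fold change of 4.05 (SE 1.14), Fst, which binds activin, 3.49 (SE 1.11), and the R-spondin receptor Lgr5 2.92 (SE 0.87). Apcdd1, Nkd2 and Znrf3, further negative regulators of the pathway, had 1.70, 1.04 and 1.03. The adhesion receptor Cd44 was the 1 member with a negative value at that mark (-0.44, SE 0.20). Myc and Ccnd1, often listed as targets of beta-catenin, were nearly level, with log2 fold changes of 0.02 (SE 0.33) and -0.19 (SE 0.35).

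**Figure D2:**
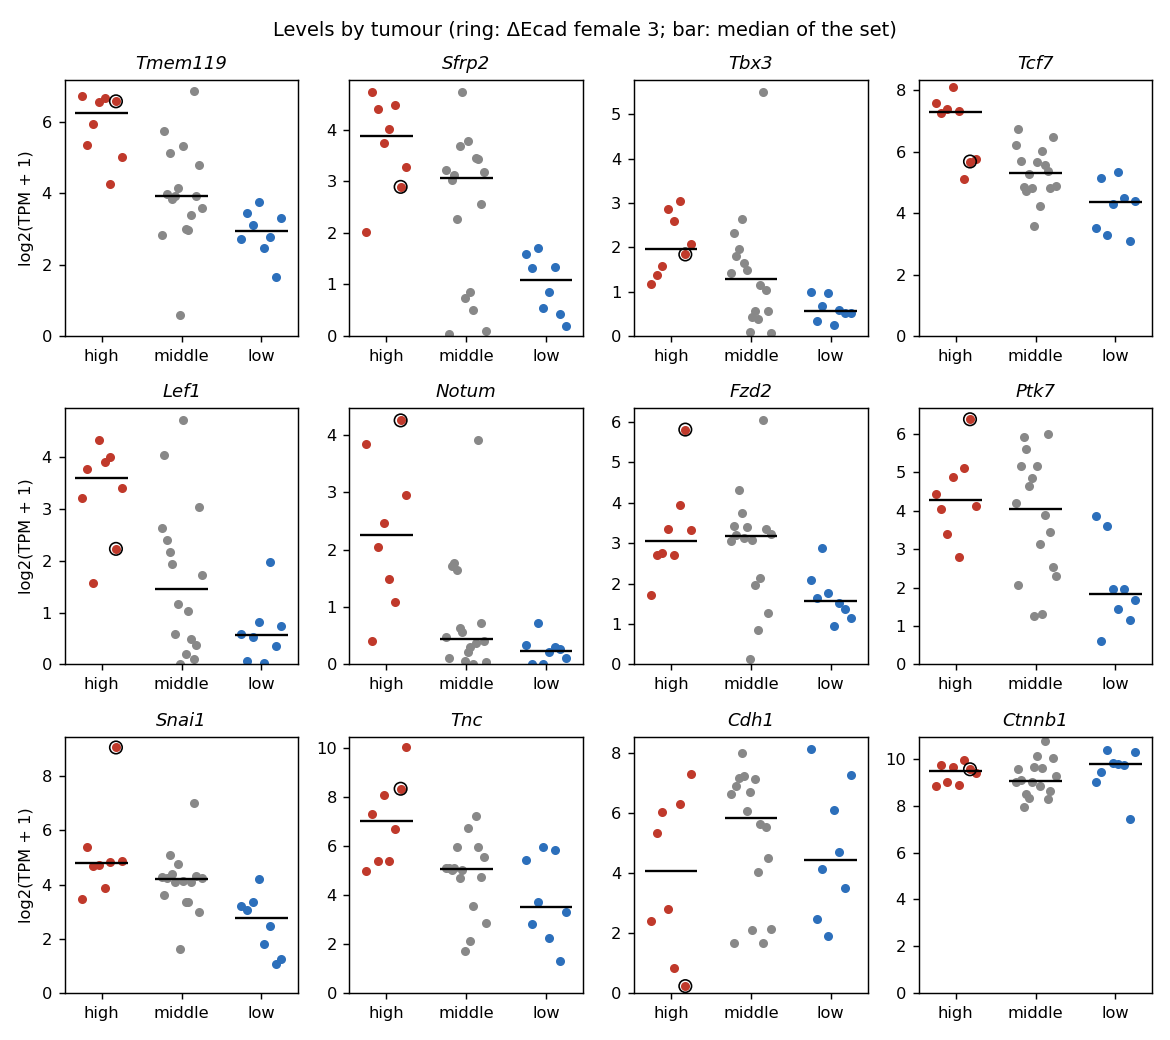
Log2(TPM + 1) of 12 genes (y axes) in the 8 high, 16 middle and 8 low tumours (x axis). Each point is a tumour, a bar marks the median and a ring the tumour ΔEcad female 3. Tmem119, Sfrp2 and Tbx3 do not overlap between the high and low sets, while Cdh1 and Ctnnb1 overlap throughout, and the middle tumours span much of both sets.

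Secreted Wnt antagonists had fold changes of both signs. Of 13 listed genes 9 passed the filter and none was called by edgeR, while DESeq2 called Sfrp2 and Sfrp4 higher and Dkk3 lower. At an unadjusted p under 0.05, 4 were higher and 1 lower, and the median log2 fold change was 1.79. The 4 were members of the secreted frizzled-related proteins, which bind Wnts outside the cell: Sfrp1, Sfrp2, Sfrp4 and Frzb. The lower gene was Dkk3, of the Dickkopf family. Other members of both families had the opposite sign, with a log2 fold change of 1.79 (SE 1.01) for Dkk2 and -0.33 (SE 1.02) for Sfrp5.

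Sfrp2 in the high set, in the order of the score, was 3.06, 25.67, 20.07, 12.45, 15.28, 21.43, 6.43 and 8.67 TPM, and in the low set 2.00, 1.49, 2.27, 0.45, 0.80, 1.53, 0.35 and 0.14 TPM. The sets did not overlap. Its log2 fold change of 3.53 (SE 0.59) narrowly missed the threshold (edgeR adjusted p = 0.0501), and it was called under 17 of 36 alternatives, among them without ΔEcad female 3 (adjusted p = 0.0421) and with keratinocyte and melanocytic scores as covariates (adjusted p = 0.0133). Sfrp2 overlaps Gm26771.

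Sfrp1 ran from 1.28 to 589.81 TPM against 0.78 to 15.60 in the low set (log2 fold change 3.86, SE 1.21, adjusted p = 0.15 by edgeR). The 589.81 TPM was in ΔEcad female 3, and without it the value was 1.24. Sfrp4 ran from 3.11 to 38.08 TPM against 1.07 to 7.00 (1.798, SE 0.56, adjusted p = 0.144 by edgeR), and its fold change was -1.19 between the 16 highest and 16 lowest tumours (-0.57 without ΔEcad male 7) and -0.66 with the score without Sp5. Dkk3 ran from 338.63 to 980.00 TPM with a median of 505 in the high set and from 385.28 to 1733.16 with a median of 1122 in the low set (log2 fold change -1.08, SE 0.30, adjusted p = 0.110 by edgeR). Each of these 3 genes overlapped between the sets.

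Wnt receptors and co-receptors were tested for 16 of 17 genes. None was called by edgeR, and DESeq2 called Fzd2, Ptk7 and Fzd6 higher. At an unadjusted p under 0.05, 5 were higher and none was lower, and the median log2 fold change was 0.39. Fzd2, a Frizzled receptor, ran from 2.28 to 55.17 TPM against 0.94 to 6.41 (log2 fold change 2.19, SE 0.55, adjusted p = 0.0766 by edgeR). Ptk7, a receptor-like pseudokinase, ran from 5.92 to 82.41 TPM against 0.54 to 13.62 (2.37, SE 0.61, adjusted p = 0.0815 by edgeR). Ror2, a receptor kinase for Wnt5a, had a log2 fold change of 2.96 (SE 0.84), Fzd6 of 1.55 (SE 0.50) and Fzd1 of 1.21 (SE 0.45), with edgeR adjusted p of 0.111, 0.160 and 0.218. With the fibroblast score as a covariate, Fzd2 had 1.08 (edgeR adjusted p = 0.47), Ror2 0.87 and Ptk7 1.76. Without ΔEcad female 3, which held the highest level of each in the high set, the log2 fold changes of Fzd2, Ror2 and Ptk7 were 1.43, 1.68 and 1.92. The co-receptors Lrp5 and Lrp6 had log2 fold changes of -0.08 and -0.37.

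Ligands gave fewer measurements, since 7 of 19 Wnt genes passed the filter. At an unadjusted p under 0.05, Wnt9a (log2 fold change 1.60, SE 0.59) and Wnt11 (1.67, SE 0.75) were higher, and neither was called (edgeR adjusted p = 0.218 and 0.325). Of 6 genes for Wnt secretion and R-spondins, which amplify Wnt signals, 3 were tested. Rspo3 had a log2 fold change of 3.31 (SE 1.32, adjusted p = 0.254 by edgeR) that rested on 48.65 TPM in ΔEcad female 3, and without that tumour it was -0.58.

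The destruction complex and the nuclear partners of beta-catenin were nearly level. All 26 listed genes were tested, none was called by edgeR or DESeq2, and 1 of them, the co-repressor Tle3 (log2 fold change 0.54, SE 0.21), had an unadjusted p under 0.05. The median log2 fold change was -0.04, against -0.07 for all genes. Ctnnb1 ran from 467.29 to 1006.75 TPM in the high and from 172.00 to 1352.67 in the low set (log2 fold change -0.32, SE 0.24, adjusted p = 0.583 by edgeR). Axin1, Apc and Gsk3b had log2 fold changes of -0.26, -0.22 and 0.14. RNA levels do not measure the amount or the location of beta-catenin protein.

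**Figure D3:**
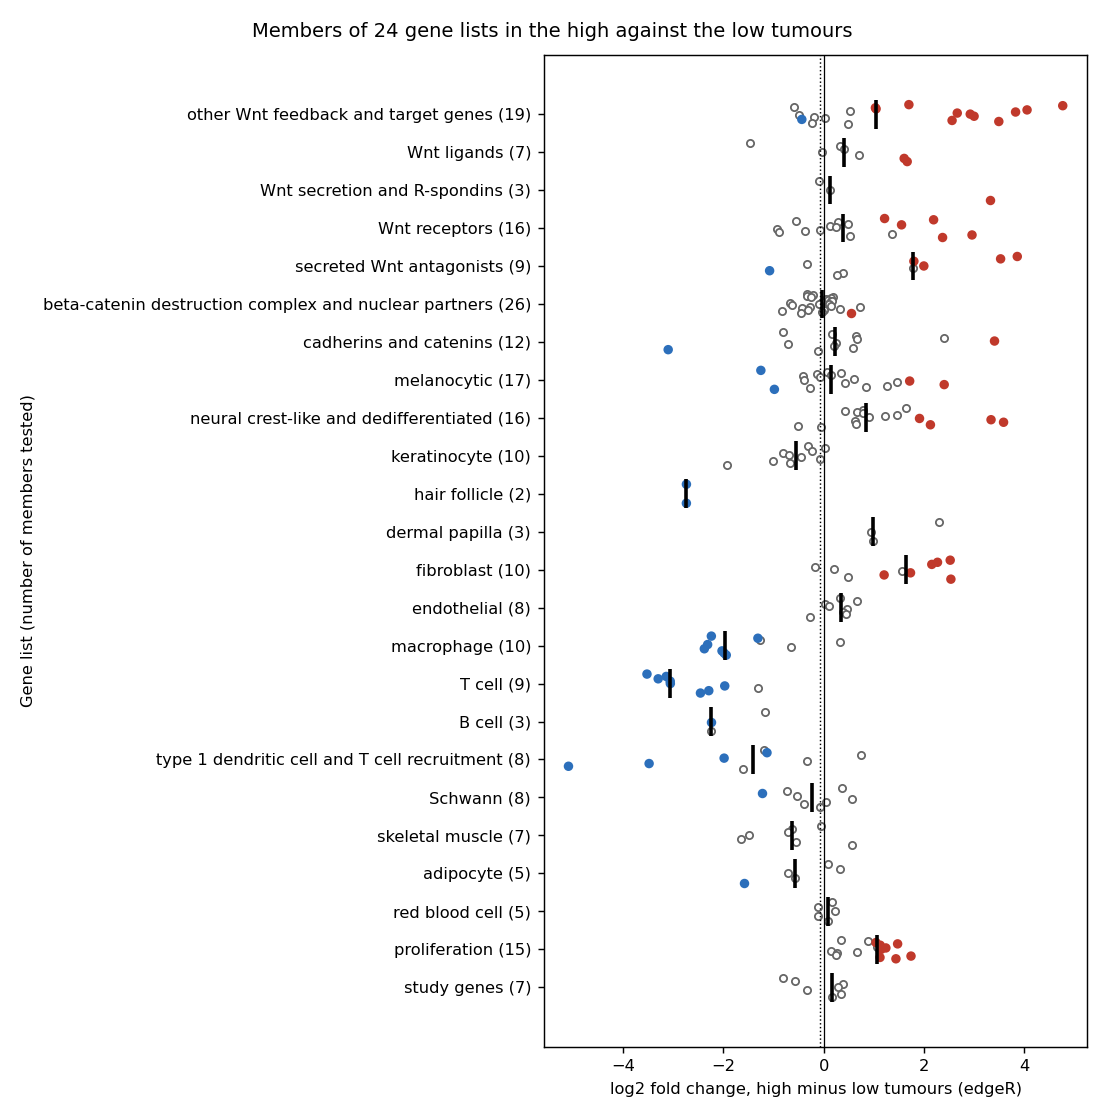
Log2 fold change between the high and the low tumours (x axis, edgeR) of each tested member of 24 gene lists (y axis, number of members tested in brackets). Filled points have an unadjusted p under 0.05, red for higher and blue for lower in the high set, thick bars are the median of a list and the dotted line is the median of all genes. Other Wnt feedback and target genes reach 4.77 with a median of 1.04, while the destruction complex stays around -0.04.

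Cadherins and catenins, the subject of the study's genotype, were tested for 12 of 14 genes. None was called by edgeR, and DESeq2 called Cdh11 higher and Ctnnd2 lower. Cdh1 ran from 0.17 to 156.02 TPM with a median of 22.8 in the high set and from 2.75 to 281.85 with a median of 20.8 in the low set. Its log2 fold change of -0.81 (SE 1.09, adjusted p = 0.788 by edgeR) changed sign under 4 alternatives, to 0.50 between the 16 highest and 16 lowest tumours, 0.48 with the score without Nkd1, 0.16 with the score on log2 CPM, and 0.07 without Ecad male 4. Cdh11, a mesenchymal cadherin, had a log2 fold change of 3.41 (SE 0.98, adjusted p = 0.115 by edgeR), which was 1.59 without ΔEcad female 3 and 1.14 with the fibroblast score as a covariate, and Ctnnd2, a neural catenin, of -3.10 (SE 1.09, adjusted p = 0.199 by edgeR). Grpr, the receptor of gastrin-releasing peptide that the study followed, was below the filter, with 0 to 262.95 TPM in the high and 0 to 31.47 in the low set. In the high set ΔEcad females 4, 8 and 3 held 117.40, 206.06 and 262.95 TPM, and every other tumour at most 0.98. The 31.47 TPM was in ΔEcad female 5, the only ΔEcad female of the low set.

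Melanocytic genes as a group did not separate the sets. All 17 were tested, none was called by edgeR, DESeq2 called Kit, and at an unadjusted p under 0.05, 2 were higher and 2 lower. Kit, the receptor for stem cell factor, had a log2 fold change of 2.40 (SE 0.79, adjusted p = 0.169 by edgeR) and the melanosomal exchanger Slc24a5 of 1.71 (SE 0.75, adjusted p = 0.303 by edgeR). Dct had -1.25 (SE 0.46, adjusted p = 0.212 by edgeR) and Gpnmb, a melanosomal glycoprotein, -0.98 (SE 0.42, adjusted p = 0.298 by edgeR). With keratinocyte and melanocytic scores as covariates, Kit had 1.13 (edgeR adjusted p = 0.520) and Gpnmb was called (-1.51, edgeR adjusted p = 0.0415), the melanocytic score being made of this list. Mitf, Tyr and Sox10 had -0.42, 0.06 and -0.07.

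Genes of neural crest-like and dedifferentiated melanoma cells had mostly positive values. Of 17, 16 were tested and none was called by edgeR, while DESeq2 called Snai1, Tnc, Nes and Egfr. By edgeR, 4 were higher at an unadjusted p under 0.05 and none lower, and the median log2 fold change was 0.84. Snai1, a repressor known in epithelial to mesenchymal transition, ran from 10.09 to 532.68 TPM against 1.11 to 17.34 (log2 fold change 3.59, SE 0.83, adjusted p = 0.0705 by edgeR). The matrix glycoprotein Tnc ran from 30.58 to 1036.73 TPM against 1.46 to 61.17 (3.34, SE 0.84, adjusted p = 0.0766 by edgeR). The intermediate filament gene Nes had 1.91 (SE 0.50, adjusted p = 0.0833 by edgeR) and Twist1 2.13 (SE 0.81, adjusted p = 0.232 by edgeR). ΔEcad female 3 held the 532.68 TPM of Snai1, and without it Snai1 had 1.90 (edgeR adjusted p = 0.109) and Twist1 1.15. With the fibroblast score as a covariate, Snai1, Tnc and Twist1 had log2 fold changes of 2.00, 1.71 and 0.84 (edgeR adjusted p = 0.333, 0.456 and 0.632), and Nes of 2.36 (adjusted p = 0.0909).

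Fibroblast markers differed alongside. In bulk tumours, fewer cells of a type and less RNA per cell cannot be told apart. All 10 were tested and none was called by edgeR, while DESeq2 called 5 higher, namely Col3a1, Postn, Col1a2, Col1a1 and Pdgfrb. By edgeR, 6 of the 10 were higher at an unadjusted p under 0.05, none was lower, and the median log2 fold change was 1.65. The summed level of the list was 487 to 10389 TPM with a median of 1580 in the high set. In the low set it was 88.7 to 1546 with a median of 436. Of the 8 high tumours, 5 exceeded every low tumour. Pdgfrb, a receptor of mesenchymal cells, had a log2 fold change of 1.73 (SE 0.42, adjusted p = 0.0756 by edgeR) and the collagen gene Col1a1 of 2.52 (SE 0.72, adjusted p = 0.115 by edgeR). Without ΔEcad female 3 the median over the list was 1.08, and Pdgfrb and Col1a1 had 1.24 and 1.99. The part of fibroblast RNA in the values of the Wnt genes was not tested beyond the covariate above.

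Of the 19 genes in which every high tumour exceeded every low tumour, Tmem119, Sfrp2 and Tbx3 are described above. Others were chosen after their values were seen. Acta2, smooth muscle actin, ran from 89.25 to 3978.23 TPM against 12.78 to 78.36 (log2 fold change 3.50, SE 0.83). The stromal membrane protein Cd248 ran from 27.79 to 459.32 TPM against 4.29 to 25.88 (2.47, SE 0.61). Cthrc1, a secreted collagen triple helix repeat protein, ran from 37.08 to 221.64 TPM against 1.95 to 20.10 (3.19, SE 0.56, adjusted p = 0.0502 by edgeR), and Tsku, a secreted proteoglycan, from 14.01 to 57.99 against 2.50 to 9.39 (1.73, SE 0.33). Without ΔEcad female 3, edgeR called Cthrc1 (3.27, adjusted p = 0.0477) and not Tsku (1.42, adjusted p = 0.0560). The remaining genes were Pi4k2b, Pdlim7, Pald1, Serpine2, Taldo1, Gm43352, Psmd3, Smn1, Adrm1, Rnf126, Ptrhd1 and Aimp2, with log2 fold changes from 0.44 to 3.09. The 3.09 was that of Gm43352, which overlaps Lef1, so its counts are uncertain where strand was not used.

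Macrophage and T cell markers had mostly negative fold changes. EdgeR called no marker of either list, while DESeq2 called the macrophage genes Mrc1 and Fcgr1 and the T cell genes Cd8a, Cd4, Cd3g, Cd3d and Cd3e lower. Of 10 macrophage markers, 7 were lower at an unadjusted p under 0.05 and none was higher, with a median log2 fold change of -1.96. Their summed level was 26.94 to 1406.56 TPM in the high and 201.94 to 4274.72 TPM in the low set, where 5 tumours exceeded every high tumour. Without ΔEcad female 3, in which Adgre1, Fcgr1, C1qa, C1qb and C1qc were listed at 0, the median was -1.77. Of 9 T cell markers tested, 8 were lower and none higher, with a median of -3.06, and of -2.85 without ΔEcad female 3. Their sum was 1.95 to 13.31 TPM in the high and 1.59 to 108.06 TPM in the low set, and 4 low tumours exceeded every high tumour.

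The co-receptor gene Cd4 had a median of 0.575 TPM in the high and 4.27 in the low set (log2 fold change -3.06, SE 0.95, adjusted p = 0.146 by edgeR), and Cd3d of 0.320 and 1.88 (-3.52, SE 1.10, adjusted p = 0.15 by edgeR). Of 8 tested genes of type 1 dendritic cells and T cell recruitment, Ccl5, Cxcl9, Flt3 and Itgae were lower at an unadjusted p under 0.05, none was higher and the median was -1.40. DESeq2 called Ccl5 and Cxcl9. Ccl5, a chemokine for T cells, ran from 0.74 to 10.54 TPM in the high and from 1.80 to 201.95 in the low set (log2 fold change -3.48, SE 0.85, adjusted p = 0.0756 by edgeR). It was called with the fibroblast score as a covariate (-4.07, edgeR adjusted p = 0.0129), as were Cd8a, Cd3g and Cd3e. Cxcl9, induced by interferon gamma, had -5.09 (SE 1.78, adjusted p = 0.194 by edgeR). Its level was 686.54 TPM in Ecad male 4 of the low set, while the medians were 0.56 TPM in the high and 2.325 in the low set. With genotype and sex as covariates Cxcl9 had -2.41 (edgeR adjusted p = 0.916).

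Of 15 proliferation genes none was called by edgeR and DESeq2 called Rrm2 and Plk1. By edgeR all 15 had positive fold changes, and 8 were higher at an unadjusted p under 0.05. The median log2 fold change was 1.07, and 0.75 without ΔEcad female 3. The sums overlapped, at 346 to 2683 TPM in the high and 189 to 965 in the low set. Rrm2, a subunit of ribonucleotide reductase, had 1.74 (SE 0.48, adjusted p = 0.0983 by edgeR), which was -0.09 with the score without Sp5 and -0.0019 between the 16 highest and 16 lowest tumours.

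Keratinocyte markers, which report skin in the sample, did not separate the sets. Of 12, 10 were tested, none was called by edgeR or DESeq2 or had an unadjusted p under 0.05, and the median log2 fold change was -0.56. Their sum ran from 7.18 to 6780.61 TPM in the high and from 6.05 to 4830.49 TPM in the low set. None of the tested endothelial (8), skeletal muscle (7), red blood cell (5) and dermal papilla (3) markers, nor of 7 genes the study followed, had an unadjusted p under 0.05. Lower at that mark were 1 of 5 adipocyte markers (Lpl, log2 fold change -1.59, SE 0.62), 1 of 3 B cell markers (Cd22, -2.24, SE 0.81) and both tested hair follicle markers (Tchh and Gata3, -2.74 each), and none of these lists held a higher gene. Of 18 listed hair follicle markers these 2 were tested. Gata3 had a median of 0.565 TPM in the high and 0.555 in the low set, and Tchh of 0.205 and 1.09. For each of them 3 low tumours exceeded every high tumour. DESeq2 called Cd22. With a keratinocyte score as a covariate edgeR called 65 genes, and with keratinocyte and melanocytic scores 93. The part of the other cell types in these results was not tested.

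**Figure D4:**
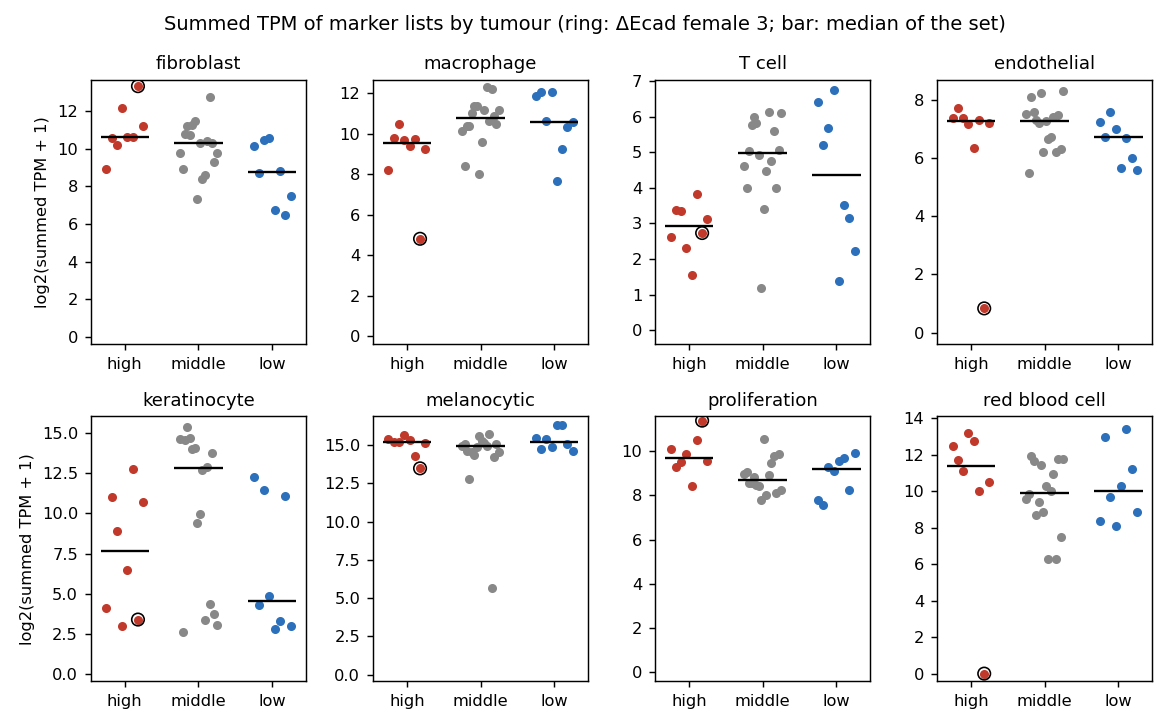
Summed TPM of 8 marker lists on a log2(sum + 1) scale (y axes) in the 8 high, 16 middle and 8 low tumours (x axis), with each point a tumour, a bar at the median and a ring at ΔEcad female 3. Fibroblast sums reach 10389 TPM in the high set, and macrophage and T cell sums reach 4274.72 and 108.06 TPM in the low set. ΔEcad female 3 has a red blood cell sum of 0.

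The 16 middle tumours took no part in the comparison above, and there the score ran from 2.06 to 3.14. The log2 change of each gene per 1 of score was tested in these tumours alone. Of 18174 genes none was called by edgeR (0.0%), 681 were higher (3.75%) and 787 lower (4.33%) at an unadjusted p under 0.05, and DESeq2 called 124. Leaving out ΔEcad male 2, ΔEcad male 7 and ΔEcad female 1 together, a choice made after seeing the data, left 0 called. Several slopes rested on ΔEcad male 7, the tumour with almost no Dct, which held the highest Tbx3 (44.61 TPM, next 5.26), Notum (14.08, next 2.42) and fibroblast sum (7003.58, next 2913.8) of the middle set, so slopes are given with and without it. With this narrow range of scores, slopes had wide errors.

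Tmem119 had a slope of -0.48 (SE 0.93) in the middle tumours and of 0.58 (SE 0.89) without ΔEcad male 7, and it ran from 0.51 to 116.48 TPM with a median of 14.2. Gm13174 had a slope of -4.81 (SE 1.82, adjusted p = 0.519 by edgeR), the same sign as between the extremes, and of -5.26 (SE 1.79) without ΔEcad male 7. It was near the floor here too, with 3 counts or fewer in 11 of the 16 middle tumours. Its highest level there, 73.46 TPM (next 17.38), was in ΔEcad male 8, the tumour with the lowest score of the middle set.

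Of the other Wnt feedback and target genes 21 were tested in the middle tumours. At an unadjusted p under 0.05, 2 were higher and none was lower, 12 slopes were positive and the median slope was 0.24, against -0.01 for all genes. Without ΔEcad male 7, 3 were higher and none was lower, 15 slopes were positive and the median was 0.89, against -0.03 for all genes, where 3.58% of genes were higher. The 2 were Nkd2, a relative of Nkd1 (1.98, SE 0.51, adjusted p = 0.367 by edgeR), and Myc (0.86, SE 0.27, adjusted p = 0.435 by edgeR). Without ΔEcad male 7 their slopes were 2.15 (SE 0.55) and 0.95 (SE 0.28). Lef1, Tnfrsf19 and Tcf7 had slopes of 1.47 (SE 1.73), 1.85 (SE 0.99) and 0.24 (SE 0.53), and of 1.11, 1.47 and 0.15 without ΔEcad male 7. Tbx3 had a slope of -1.66 (SE 1.33) with that tumour and of 2.83 (SE 0.94, edgeR adjusted p = 0.396) without it. Notum had -1.48 (SE 1.42) with it and 2.13 (SE 1.20, edgeR adjusted p = 0.651) without it.

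Among 11 antagonists, Sostdc1 was higher (4.63, SE 1.94) and Dkk2 lower (-7.43, SE 2.13) at an unadjusted p under 0.05, and Sfrp2 had a slope of 0.47 (SE 1.51). Without ΔEcad male 7 the slope of Dkk2 was 1.63 (SE 1.23), that of Sostdc1 4.29 (SE 1.93) and that of Sfrp2 0.62 (SE 1.67). Among 17 receptors, Fzd6 was higher (1.20, SE 0.47, adjusted p = 0.539 by edgeR), and the median slope was -0.24 (Fzd6 1.00, SE 0.48, and median 0.08 without ΔEcad male 7). Without that tumour Ptk7 was higher and Fzd9 lower at an unadjusted p under 0.05, and Fzd6 did not reach that mark. Of 15 ligands, Wnt5a (-4.09, SE 1.22) and Wnt2 (-2.80, SE 1.12) were lower, with slopes of -4.34 and -1.40 without ΔEcad male 7. Without that tumour Wnt5a alone was lower and Wnt16 was higher at the same mark. Cdh1 had a slope of 2.81 (SE 1.24, adjusted p = 0.579 by edgeR), with an unadjusted p under 0.05. Without ΔEcad male 7 its slope was 2.38 (SE 1.20, edgeR adjusted p = 0.604) and did not reach that mark.

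Some of the lists are given for the middle tumours with and without ΔEcad male 7, and their difference from the extremes was not tested. Of 10 fibroblast markers 4 (Fap, Pdgfra, Lum and Thy1) were lower at an unadjusted p under 0.05 and none was higher, with a median slope of -1.03. Without that tumour Fap alone was lower, 6 of 10 slopes were positive and the median was 0.36. None of 15 proliferation genes had a positive slope (median -0.58), and 1 had without the tumour (median -0.50), where all 15 were positive between the extremes. Keratinocyte markers had positive slopes in 12 of 12 genes (median 2.95), with the cornified envelope gene Ivl at an unadjusted p under 0.05, and in 11 of 12 without the tumour (median 2.59). Of 10 macrophage markers C1qa, C1qb, C1qc and Adgre1 were lower, 1 slope was positive and the median was -1.56. Without the tumour C1qa and C1qc were lower and the median was -0.81. C1qa, a complement component made by macrophages, had a slope of -2.66 (SE 0.65, adjusted p = 0.358 by edgeR), and of -2.56 (SE 0.69) without the tumour. Of 10 T cell markers none had an unadjusted p under 0.05 and 2 slopes were positive (median -0.68, and -0.78 without the tumour). Of 17 neural crest-like and dedifferentiated genes, Aqp1 and Zeb1 were lower, none was higher and the median was -0.29. Without the tumour Sox2 was higher, none was lower and the median was -9e-04.

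**Figure D5:**
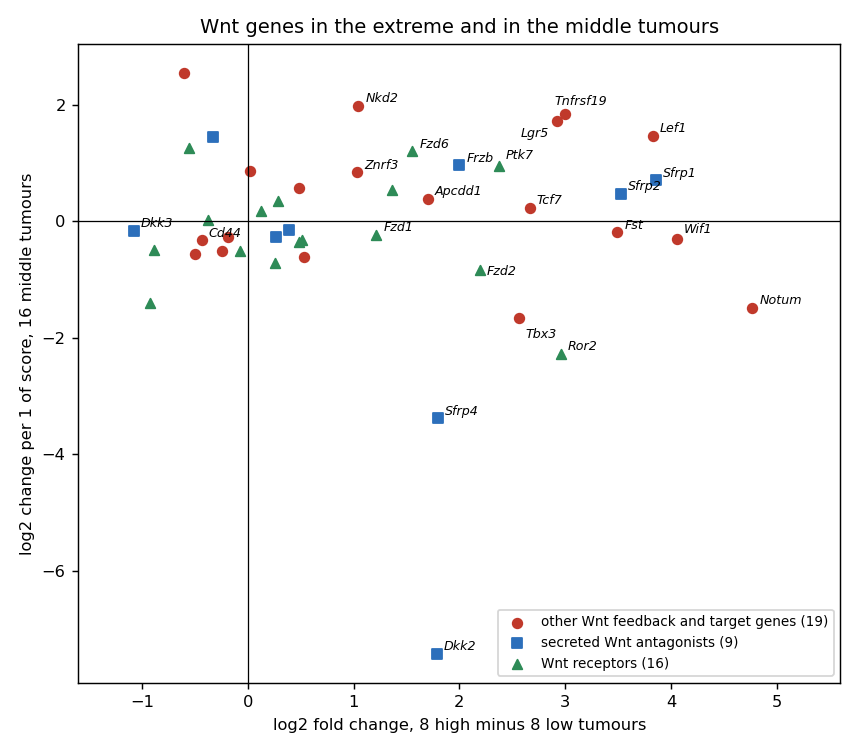
Log2 fold change between the 8 high and 8 low tumours (x axis) and log2 change per 1 of score in the 16 middle tumours (y axis) of 19 other Wnt feedback and target genes, 9 secreted antagonists and 16 receptors, each point a gene. Lef1, Tnfrsf19 and Sfrp2 are positive on both axes. All 16 middle tumours are included, and the negative slopes of Tbx3, Notum and Dkk2 become 2.83, 2.13 and 1.63 without ΔEcad male 7.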

How the data were processed

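RNA was extracted from primary tumours with the miRNeasy kit and polyadenylated RNA was made into stranded libraries. Per the labels and the methods of the study, the authors checked reads with FastQC 0.11.5, mapped them with STAR to GRCm38.p5 (mm10) with GENCODE M13, and deposited raw counts per gene and TPM, scaled for gene length and library size. They do not state that counting used strand. Count and TPM kept 1 ratio per gene within 0.0698% for 996 abundant genes. Of 50600 genes, GENCODE M21 named 50376.

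The score was the mean log2(TPM + 1) of Axin2, Nkd1 and Sp5, and groups came from the labels. The members and gene lists were chosen with earlier results of these data known. High and low tumours were compared on the deposited counts with edgeR 4.0.16 in R 4.3.3 (two-sided quasi-likelihood test, robust, TMM factors, filterByExpr with a minimum count of 10), fitted on these 16 tumours without covariates. Axin2, Nkd1 and Sp5 stayed in the fit and were left out of counts of genes. The slope on the score was fitted likewise in the 16 middle tumours. Adjustment was by Benjamini-Hochberg over all genes tested, and SE was derived from the test statistic. Single values were compared by exact permutation over 12870 splits. Scripts were tested on simulated data. Named genes were Axin2, Nkd1, Sp5, Cdh1, Ctnnb1 and Grpr, called genes with a symbol other than a Gm or Rik name, and up to 4 members of each list with the smallest p. Others are said in the text to have been chosen after their values were seen, as were those named only by count or from the middle tumours.

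Alternatives used DESeq2 1.42.0, limma 3.58.1 (voom), other filters, covariates, scores and cuts, each tumour left out, and further settings chosen after seeing the data (a looser threshold, and exclusions of libraries that stand apart). Figures were drawn with matplotlib 3.10.9. A count of 0 allows up to 3 counts, and such floors cover counting error only. No pair of libraries correlated above 0.990, and none was treated as a duplicate.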

Additional observations from a re-analysis of the deposited data

Results flagged for a closer look

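Of 202 groups of 8 tumours examined, 21 held a tumour whose distance to its nearest neighbour was a large part of the range of its set (Dixon's criterion at 95%). Chance marks about 1 in 20 groups, and the genes of a list are not independent. ΔEcad female 3 accounts for 11, ΔEcad male 1 for 4 and ΔEcad female 8 for 3. No explanation was tested. Values are log2(TPM + 1), with the nearest value of the set beside each.

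ΔEcad female 3 of the high set was highest in Rspo3 (5.63, next 0.82), Ror2 (5.13, next 2.55), Snai1 (9.06, next 5.39), Twist1 (6.81, next 4.32), Pdgfrb (7.82, next 5.96), Tsku (5.88, next 4.5) and the sum of Wnt receptors (10.03, next 8.83). It was lowest in Dct (10.91, next 12.85) and in the sums of endothelial (0.83, next 6.35), macrophage (4.8, next 8.22) and red blood cell markers (0, next 10).

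ΔEcad female 8 of the high set was lowest in Slc24a5 (2.94, next 8.16) and highest in Cxcl9 (4.75, next 1.2) and Gm13174 (1.7, next 0.8). In the low set, ΔEcad male 1 was lowest in Ctnnb1 (7.43, next 9.01), Gpnmb (9.84, next 11.79) and the sums of Wnt secretion and R-spondin genes (4.87, next 6.23) and of the genes the study followed (8.06, next 9.78). Also in the low set, Ecad male 7 was highest in Lef1 (1.97, next 0.82), ΔEcad male 5 in Notum (0.72, next 0.33) and Ecad male 4 in Sp5 (1.74, next 0.26).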

How the results depend on the processing

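Beside the 2 genes called between the sets, 728 were called by DESeq2, 12 by limma voom, 6 with no low-count filter, 6 with at least 1 CPM in 8 tumours, and 6 with genotype and sex as covariates. With a keratinocyte score as a covariate 65 were called, with keratinocyte and melanocytic scores 93, with a fibroblast score 233 (48 higher, 185 lower), with all 32 tumours in 3 levels 110 and per 1 of score 179 (no fold threshold). The 16 highest against the 16 lowest gave 12, the score without Axin2 13, of z values 106 and on log2 CPM 211. At an adjusted p under 0.1 there were 316 and without ΔEcad female 3 and Ecad male 8 together 1, both chosen after seeing the data, as was leaving ΔEcad male 7 out of 16 against 16, which gave 41. Leaving out 1 tumour gave 1 to 113. The cause of these changes was not tested. RLE factors (3), no fold threshold (2), 6 against 6 tumours (2) and scores without Nkd1 (2) or Sp5 (3) stayed within 1.5 times the count. The genes called were not always the same. Those called in 6 against 6 did not include Gm13174. Those called with scores without Nkd1 or Sp5 did not include Tmem119 (edgeR adjusted p = 0.0777 and 0.0978).

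With a replicate block on the tumour numbers, 0 genes were called (edgeR; Tmem119 had a log2 fold change of 3.04, adjusted p = 0.230). The numbers do not pair the tumours: deviations from the group means correlated by -0.0059 on average over 48 pairs with the same number and by 0.0034 over other pairs.

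In the middle tumours, beside 0, DESeq2 called 124, the fit with genotype and sex 1, and leaving out 1 tumour gave 0 to 1 (1 without ΔEcad male 3). The difference in total counts, -2767985, was 1355955 for 16 against 16, and -4460127 to 770260 on leaving out 1 tumour. The label comparisons crossed no threshold.

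Log2 fold changes changed sign as follows. For 16 against 16 they were 0.50 for Cdh1, -0.0142 for Tbx3, -1.19 for Sfrp4, 1.83 for Tchh, 1.04 for Gata3, 0.12 for Lpl and -0.0019 for Rrm2. ΔEcad male 7 was among the 16 lowest, and without it they were 0.41 for Cdh1, -0.57 for Sfrp4 and -0.0381 for Rrm2, while Tbx3 had 2.32 and was called. Without Nkd1 in the score they were 0.48 for Cdh1, -0.31 for Rspo3 and 0.39 for Gata3, without Sp5 -0.66 for Sfrp4 and -0.0867 for Rrm2, and without Axin2 -1.21 for Rspo3 and -0.43 for Twist1. On log2 CPM they were 0.16 for Cdh1 and -0.62 for Rspo3. Rspo3 was -0.60 in DESeq2 and -0.48 for 6 against 6, Gata3 0.23 with z values and Twist1 -0.0217 per 1 of score. Leaving out 1 tumour gave -1.49 to 0.0664 for Cdh1 and -0.58 to 3.80 for Rspo3. Slopes in the middle tumours changed sign without ΔEcad male 7 to 0.58 for Tmem119, 2.83 for Tbx3, 2.13 for Notum and 1.63 for Dkk2, and without the 3 libraries that stand apart there to 0.66, 2.87, 1.77 and 1.27. Over named genes and alternatives other than those chosen after seeing the data, 2298 log2 fold changes kept sign and side of the threshold, 242 passed it newly, 11 lost it and 22 changed sign.

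With 8 tumours a set and a common dispersion of 0.518, moderate changes could not be told from the spread. Genes near the floor, such as Gm13174, have fold changes that depend on the prior count.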

Other observations

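Beside the genes described above, those with the smallest p that were not called, chosen after their values were seen, included several with roles outside the Wnt pathway. Rasgrp3, a guanine nucleotide exchange factor for Ras, ran from 3.64 to 17.28 TPM in the high and from 14.74 to 673.90 in the low set (log2 fold change -3.81, edgeR adjusted p = 0.0537). Gpr158, an orphan receptor, ran from 0.01 to 0.83 TPM against 1.55 to 7.11 (-3.93, edgeR adjusted p = 0.0607), with no overlap of the sets, and it overlaps Gm13327, Gm13379 and Gm24886. The complement gene C2 ran from 1.96 to 28.04 TPM against 32.67 to 102.48 (-1.94, edgeR adjusted p = 0.0681). Pi4k2b, a phosphatidylinositol 4-kinase, ran from 57.16 to 185.73 TPM against 6.74 to 56.05 (1.83, edgeR adjusted p = 0.0502). Without ΔEcad female 3, edgeR called Gpr158 and Pi4k2b (-3.74 and 1.89, adjusted p = 0.0477 for both) and not Rasgrp3 (-3.68, adjusted p = 0.0560).

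Further genes in which every high tumour exceeded every low tumour had smaller differences. Psmd3 and Adrm1, of the proteasome, had log2 fold changes of 0.56 and 0.44 (edgeR adjusted p = 0.193 and 0.251), Smn1, of the spliceosome assembly machinery, 0.56 (edgeR adjusted p = 0.221), and Taldo1, an enzyme of the pentose phosphate pathway, 0.83 (edgeR adjusted p = 0.115).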
